A study of Sus scrofa with 6 samples.

Results

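The nuclear genes of the mitochondrial respiratory chain were examined in abdominal aorta of male Wuzhishan miniature pigs. They were taken as the protein-coding genes whose symbol starts with NDUF, UQCR, ATP5 or COX4 to COX8, together with CYC1 and the succinate dehydrogenase genes. The rule found 75 of 30477 genes in the deposited table, of which 20288 were protein coding. The NC group was fed normal chow and the HFCF group a high-fat, high-cholesterol, high-fructose diet, each for 6 months, with 3 pigs and 1 library per pig in each group. No pig carried a genetic modification or received another agent. The sample labels give an age of 3 to 4 months. The methods give an older age at acquisition, followed by the 6 months of diet, so the label cannot be the age at sampling. The samples were pieces of whole aortic wall, so fewer cells of a type and less RNA per cell cannot be told apart.

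The respiratory chain sits in the inner mitochondrial membrane. Complex I (NADH dehydrogenase) and complex II (succinate dehydrogenase) pass electrons to ubiquinone, complex III passes them to cytochrome c, and complex IV (cytochrome c oxidase) passes them to oxygen. The proton gradient built by complexes I, III and IV drives complex V, the ATP synthase. The mitochondrial genome encodes 13 of the subunits, and the nucleus encodes all the others, the catalytic F1 head of ATP synthase and the whole of complex II among them. Contractile smooth muscle of the healthy aortic wall relies on glycolysis as well as on oxidative phosphorylation, and macrophages that enter a lesion can use either.

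Expression was given as FPKM, the fragments of a gene per kilobase of its exons and per mapped reads of the library. Fold changes were taken on the log2(FPKM + 0.1) scale, HFCF against NC, over the 15384 genes that averaged 0.1 FPKM or more. A gene was called changed at an adjusted p under 0.05 in limma's moderated test. Means are given ± SD over the 3 pigs of a group. Read totals are not given in the sources used here, and relative depths estimated from low FPKM steps lay between 1 and 1.37 among NC pigs and between 1.03 and 1.06 among HFCF pigs. Pigs were separate animals, and a single gene compared by exact permutation of 3 against 3 pigs could not go below p = 0.1.

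In whole tissue the balance of cell markers differed between the groups. Of 10 contractile smooth muscle markers, 7 fell, and their summed FPKM was 16076 to 22886 in the NC pigs and 8084 to 12986 in the HFCF pigs. All 10 macrophage markers rose, from a sum of 58.1 to 69.4 FPKM to 807 to 2032 FPKM, and none of these markers was at 0 in all pigs. Among all tested genes 22.8% rose and 6.16% fell. Of 7 T cell markers 3 rose (42.9%), one of which, TRAT1, averaged 0.016 FPKM in NC pigs and passed the filter only through the HFCF pigs, and of 6 fibroblast markers 1 rose (16.7%). No tested marker of endothelium (7), adipocytes (6), skeletal muscle (5) or red blood cells (2) was called, but single pigs stood apart. Red blood cell markers summed to 2883 FPKM in the first HFCF pig, against 22.0 to 178 FPKM in the other 5 pigs. This pig also had the highest sums of macrophage, T cell and skeletal muscle markers. Adipocyte markers summed to 190.3 and 297 FPKM in the first and second NC pigs and to 37.6 FPKM in the third, against 88.5 to 132.5 FPKM in the HFCF pigs. The part of these shifts in the results on the respiratory chain was not tested.

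Most nuclear respiratory chain genes were higher in the HFCF group. Of the 75 genes, 42 rose (56.0%), against 22.8% of all tested genes, and 2 fell, NDUFA9 and ATP5F1A, against 6.16% of all tested genes. The other 31 were not called. Without the first HFCF pig, 43 rose and 5 fell, against 18.1% and 5.10% of all tested genes. The median log2 fold change of the 75 genes was 0.90, which was 0.58 above the 0.32 of all tested genes. In 53 genes every HFCF pig was above every NC pig, against 36.1% of all tested genes, and in 7 every HFCF pig was below every NC pig, against 12.1%. The median level of the 75 genes was 13.8 FPKM over the NC means and 29.0 FPKM over the HFCF means. Their summed share of all FPKM was 0.684%, 0.687% and 0.653% in NC pigs, against 0.882%, 0.918% and 1.07% in HFCF pigs. The study's rule for a changed gene was a ratio of group means above 2 or below 0.5 with an unadjusted p under 0.05. The methods name no model for that p, so limma's was used here, and the study's own list need not be the same. By this rule 34 of the 75 were higher, against 20.7% of all tested genes, and SDHC alone was lower, against 4.82%. The rises include COX6B2, which was at 0 in all NC pigs and passed the filter only through the HFCF pigs. Without COX6B2, 41 of 74 genes rose (55.4%), with a median of 0.86. In 52 of these 74 every HFCF pig was above every NC pig, and 33 were higher by the study's rule.

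The deposited values carried a general shift. Total FPKM lay at 272207 to 287141 for NC pigs and 330222 to 338690 for HFCF pigs, and the median of all tested genes moved from 0.32 to -0.003 after median-ratio scaling, to -0.07 after quantile normalization, to 0.09 after rescaling to TPM and to 0.18 after rescaling without the mitochondrial genes. Under these 4 scalings 33, 36, 34 and 39 of the 75 genes were higher and 9, 5, 5 and 4 were lower. Of all tested genes 13.2%, 11.4%, 14.5% and 17.1% were higher, and 12.8%, 11.6%, 9.93% and 8.35% were lower. The share of the 75 genes that was lower thus did not exceed that of all tested genes under any of the 4. The excess of the median of the 75 genes over that of all genes lay between 0.55 and 0.67. Of the 42 genes that rose, 31 were called under all 4 scalings, and 31 were called in every one of the 16 alternative analyses in which they were tested. None of the 42 changed sign in any of the 16.

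**Figure D1:**
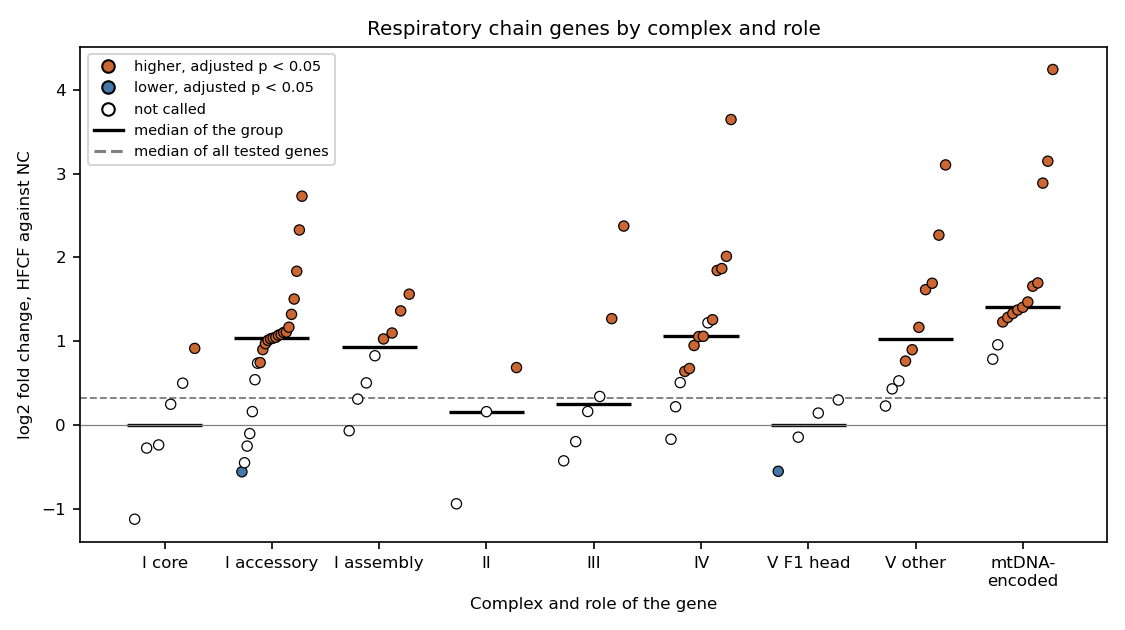
Log2 fold change, HFCF against NC (vertical axis), of the 75 nuclear genes by complex and role and of the 13 mitochondrially encoded genes; each point is a gene, filled when its adjusted p was under 0.05, bars are group medians and the dashed line is the median of all tested genes (0.32). The medians of the complex I core (0.008) and of the F1 head (0.002) lie below the dashed line, while those of complex I accessory subunits (1.04) and complex IV (1.06) lie above it.

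Complex I held 38 of the 75 genes. Their median log2 fold change was 0.95. Of the 38 genes 22 were higher (57.9%, against 22.8% of all tested genes) and 1 was lower, against 6.16%. The accessory subunits, which surround the catalytic core and are needed for its assembly and stability, held most of the calls: 17 of 24 rose (70.8%, against 22.8% of all tested genes) and NDUFA9 fell, with a median of 1.04. Of the 6 core subunits with a symbol, only NDUFS3 rose (16.7%, near the share of all tested genes), and their median was 0.008. The difference between core and accessory subunits was not tested. Of 8 assembly factors, 4 rose (50%), with a median of 0.93.

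NDUFB4, an accessory subunit of the membrane arm, had 14.9, 12.9 and 12.5 FPKM in the NC pigs and 96.6, 79.9 and 92.8 FPKM in the HFCF pigs. It rose 2.73 on the log2 scale (SE 0.14, adjusted p = 0.000255) and changed most among the 38 genes. NDUFA2, an accessory subunit of the matrix arm, had 5.83, 6.63 and 6.62 FPKM in the NC pigs and 31.1, 34.8 and 31.1 FPKM in the HFCF pigs (log2 fold change 2.33, SE 0.14, adjusted p = 0.00034). For both genes the groups were far apart and the pigs of a group lay close together. NDUFA13, also known as GRIM-19, had 6.60, 7.74 and 5.83 FPKM against 21.9, 23.8 and 26.8 FPKM (log2 fold change 1.84, SE 0.17, adjusted p = 0.00108). Next came NDUFA5 at 1.505, NDUFB3 at 1.32 and NDUFB5 at 1.17. A dense group lay near a doubling of the FPKM: NDUFB11, NDUFB7, NDUFB8, NDUFB10, NDUFS5, NDUFA8, NDUFS4 and NDUFA6 had log2 fold changes between 1.01 and 1.11. NDUFB6 rose 0.97 but was called in 7 of 16 alternatives, and NDUFB2 was not called, at 0.16 (adjusted p = 0.683).

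The smallest rises among the 22 genes that rose were those of NDUFS6 (0.75, SE 0.12, adjusted p = 0.00587) and NDUFA1 (0.90, SE 0.14, adjusted p = 0.00594). NDUFS6 had 22.3, 22.6 and 21.7 FPKM in the NC pigs and 36.9, 38.8 and 36.5 FPKM in the HFCF pigs, without overlap. NDUFB9, with the highest mean level of the 38 genes, was not called (0.54, adjusted p = 0.0942): the first HFCF pig had 77.0 FPKM, level with the 77.0, 70.6 and 67.2 FPKM of the NC pigs, while the others had 112.5 and 130.6 FPKM. Without that pig its adjusted p was 0.0183, and over all alternatives it was 0.0183 to 0.572. NDUFA11 showed the same first pig near the NC range, with 20.7 FPKM, while the others had 32.0 and 36.6 FPKM (adjusted p = 0.0582, and 0.0180 without that pig).

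NDUFA9, an accessory subunit at the junction of the matrix and membrane arms, had 14.1, 13.7 and 15.9 FPKM in the NC pigs and 11.6, 8.58 and 9.62 FPKM in the HFCF pigs. It fell by 0.55 on the log2 scale (SE 0.17, adjusted p = 0.0448), but it was called in 8 of 16 alternatives, with adjusted p between 0.00936 and 0.131. NDUFC2 lay nearby, with 11.9, 12.1 and 12.1 FPKM against 9.69, 8.78 and 8.03 FPKM (log2 fold change -0.45, adjusted p = 0.0538). NDUFC2 was called lower under each of the 4 scalings. NDUFAB1, the mitochondrial acyl carrier protein, changed -0.25 on this scale (adjusted p = 0.277), and NDUFA10 had -0.10 (adjusted p = 0.654).

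Among core subunits, NDUFS3 had 22.7, 19.9 and 25.6 FPKM in the NC pigs and 48.7, 38.1 and 42.2 FPKM in the HFCF pigs (log2 fold change 0.92, SE 0.16, adjusted p = 0.00761). NDUFV1, which binds the flavin that accepts electrons from NADH, had 43.0, 52.8 and 42.8 FPKM against 33.7, 41.2 and 43.0 FPKM (log2 fold change -0.23, adjusted p = 0.305), so its groups overlapped. NDUFS1, the largest subunit of the matrix arm, had 0.25 and NDUFV2 0.50 as log2 fold changes (adjusted p = 0.264 and 0.0518). NDUFS8 was scattered, with 3.72, 5.49 and 2.32 FPKM against 4.23, 1.39 and 0.681 FPKM (-1.12, adjusted p = 0.219). The core genes thus lay between -1.12 and 0.92, against -0.55 to 2.73 for the accessory subunits.

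The assembly factors that rose were NDUFAF2 (1.56), NDUFAF8 (1.36), NDUFAF4 (1.10) and NDUFAF5 (1.03). NDUFAF2, a chaperone of late complex I assembly, had 0.365, 0.437 and 0.455 FPKM in the NC pigs and 1.49, 1.30 and 1.51 FPKM in the HFCF pigs (SE 0.25, adjusted p = 0.00606). NDUFAF4 and NDUFAF5 each lost the call in 5 of the 6 analyses that left out a pig, with adjusted p up to 0.115 and 0.0826. NDUFAF1, NDUFAF3, NDUFAF6 and NDUFAF7 were not called, at 0.51, 0.31, -0.07 and 0.83.

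**Figure D2:**
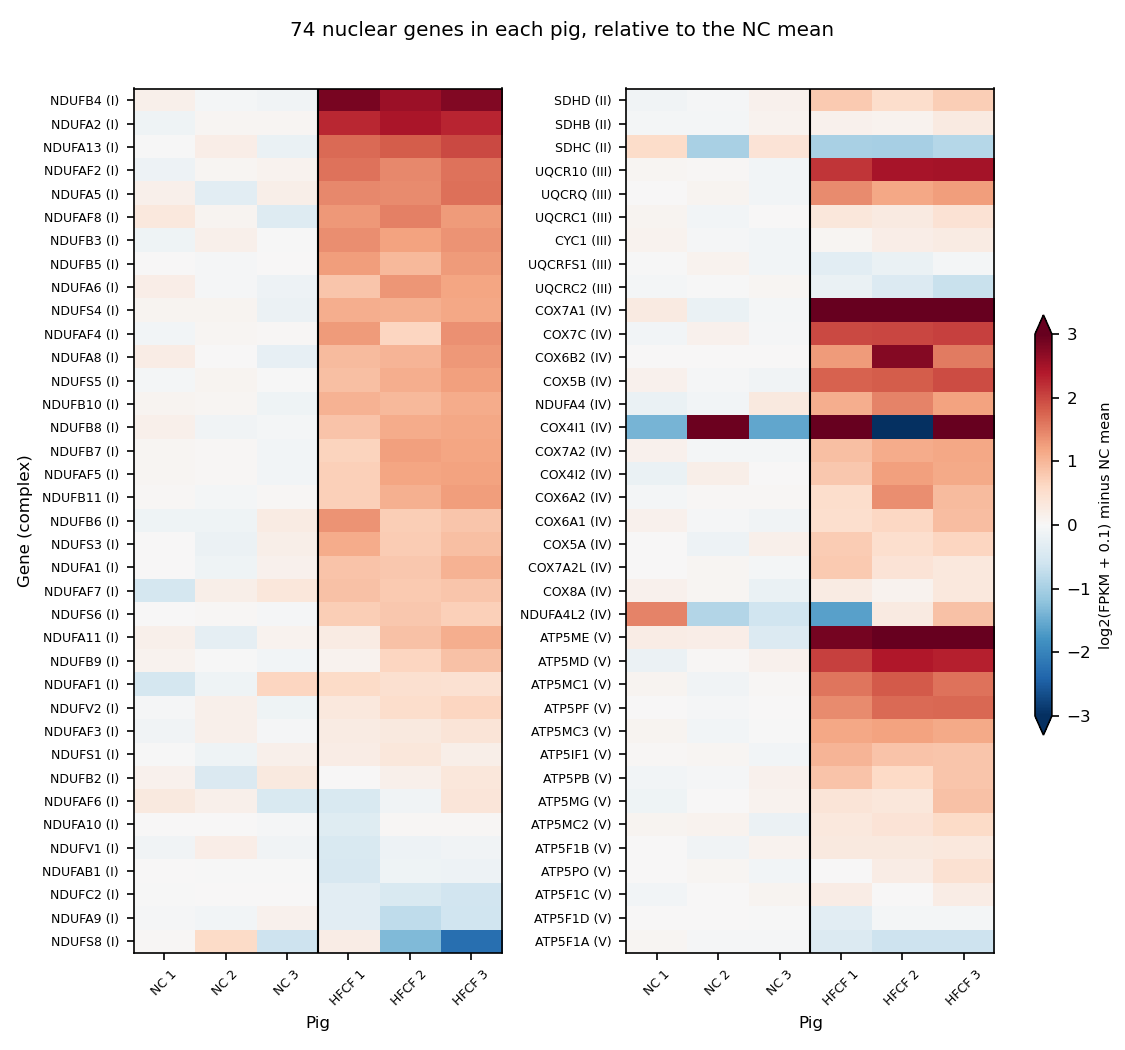
Log2(FPKM + 0.1) of 74 of the 75 genes (rows, with the complex in parentheses) in each pig (columns), relative to the mean of the 3 NC pigs and cut at -3 and 3; within a complex, genes are ordered by log2 fold change. Red rows such as COX7A1, ATP5ME and NDUFB4 are high in all 3 HFCF pigs, while COX4I1 and NDUFA4L2 vary within both groups.

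In complex II, 1 of the 3 genes with a symbol was called, as higher (33.3%, against 22.8% of all tested genes). With so few genes this cannot be set apart from the share of all tested genes. The median of the 3 was 0.16, below the 0.32 of all tested genes. The called gene was SDHD, a membrane anchor, with 27.9, 29.1 and 32.7 FPKM in the NC pigs and 51.5, 43.4 and 49.9 FPKM in the HFCF pigs (log2 fold change 0.69, SE 0.14, adjusted p = 0.0124). The call was lost after median-ratio scaling and rescaling to TPM. SDHB, the iron-sulfur subunit, had 28.3, 28.4 and 31.4 FPKM against 31.9, 31.3 and 35.5 FPKM (0.16, adjusted p = 0.378, and below 0 after median-ratio scaling and rescaling to TPM). SDHC, the other anchor, had 9.11, 3.12 and 8.32 FPKM in the NC pigs and 3.14, 3.05 and 3.41 FPKM in the HFCF pigs. The second NC pig thus matched the HFCF pigs, and SDHC was not called (-0.94, SE 0.40, adjusted p = 0.118), whereas without that pig its adjusted p was 0.0116 and its log2 fold change -1.42. Over all alternatives the adjusted p of SDHC was 0.0116 to 0.345.

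In complex III, 2 of 6 genes with a symbol rose (33.3%, against 22.8% of all tested genes) and none fell. With so few genes this cannot be set apart from the share of all tested genes. The median of the 6 was 0.25, below the 0.32 of all tested genes. UQCRH and UQCR11 of this complex had no symbol and are not counted here. They rose 2.68 and 1.68, so the place of this median depends on which genes are counted. UQCR10 and UQCRQ, small subunits without a redox centre, both rose. UQCR10 had 19.0, 18.6 and 17.2 FPKM in the NC pigs and 81.0, 102.4 and 103.9 FPKM in the HFCF pigs (log2 fold change 2.37, SE 0.15, adjusted p = 0.000385). UQCRQ had 12.2, 12.9 and 11.4 FPKM against 32.4, 27.2 and 29.0 FPKM (1.27, SE 0.14, adjusted p = 0.00178). None of the 4 redox and core subunits was called, a split made after the values had been seen. CYC1, the cytochrome c1 that hands electrons on and the most abundant of the 6 genes, had 67.5, 61.2 and 58.6 FPKM against 64.5, 71.4 and 74.1 FPKM (0.16, adjusted p = 0.382, and below 0 after median-ratio scaling and rescaling to TPM). UQCRFS1, the Rieske iron-sulfur protein, had 11.8, 12.6 and 11.1 FPKM against 9.42, 10.3 and 11.2 FPKM (-0.19, adjusted p = 0.348). The core proteins UQCRC1 and UQCRC2 had log2 fold changes of 0.34 and -0.42 (adjusted p = 0.0845 and 0.0832). UQCRC2 was called lower under each of the 4 scalings.

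In complex IV, 10 of 14 genes rose (71.4%, against 22.8% of all tested genes), none fell, and the median log2 fold change was 1.06. COX7A1, the isoform typical of heart and skeletal muscle, changed most among all 75 genes. It had 6.91, 4.99 and 5.50 FPKM in the NC pigs and 59.0, 79.6 and 82.8 FPKM in the HFCF pigs, a log2 fold change of 3.64 (SE 0.20, adjusted p = 0.000255). Its ubiquitous counterpart COX7A2 rose less, from 46.9, 41.0 and 41.3 FPKM to 80.6, 92.8 and 96.6 FPKM (1.06, SE 0.14, adjusted p = 0.00301). Of the summed FPKM of both, COX7A1 made up 11.8% ± 0.982 in NC pigs and 44.9% ± 2.26 in HFCF pigs. Skeletal muscle markers summed to 1.35 to 5.73 FPKM in the NC pigs and to 18.0, 1.01 and 1.03 FPKM in the HFCF pigs. The part of skeletal muscle RNA in the COX7A1 values was not tested.

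COX7C, COX5B and NDUFA4 also rose. COX7C, a small membrane subunit, had 9.88, 11.5 and 10.19 FPKM in the NC pigs and 41.7, 42.2 and 44.1 FPKM in the HFCF pigs (log2 fold change 2.01, SE 0.13, adjusted p = 0.000412). COX5B, a zinc-binding subunit on the matrix side, had 19.7, 17.5 and 16.8 FPKM against 62.0, 63.2 and 69.7 FPKM (1.84, adjusted p = 0.000572). NDUFA4, first assigned to complex I and now counted with complex IV, had 46.6, 50.6 and 65.6 FPKM against 115.1, 149.9 and 123.0 FPKM (1.26, adjusted p = 0.0043). COX8A, the most abundant of the 75 genes, was not called, with 157.5 ± 17.6 FPKM in NC pigs and 183 ± 14.1 FPKM in HFCF pigs (0.22, adjusted p = 0.302, and below 0 after median-ratio scaling and rescaling to TPM).

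In the COX6A pair the isoforms rose by similar amounts. COX6A2, a muscle isoform, rose from 5.24, 5.60 and 5.64 FPKM to 7.94, 14.5 and 10.7 FPKM (log2 fold change 0.95, adjusted p = 0.0232), and COX6A1, found in most tissues, from 31.9, 28.4 and 27.1 FPKM to 41.2, 44.5 and 54.8 FPKM (0.68, adjusted p = 0.0195). The share of COX6A2 was 15.9% ± 1.61 in NC pigs and 19.0% ± 4.83 in HFCF pigs, and the ranges overlapped. COX6A2 was called in 7 and COX6A1 in 9 of 16 alternatives, and each lost its call, among other alternatives, without the second or the third NC pig or the second HFCF pig. COX5A, a matrix-side subunit, rose 0.64 (adjusted p = 0.0173) and lost its call without the first or second NC pig (adjusted p = 0.0566 and 0.0560). COX4I2, an isoform known from lung and from cells under low oxygen, had 34.0, 44.2 and 39.3 FPKM against 68.2, 91.9 and 85.1 FPKM (1.06, SE 0.17, adjusted p = 0.00611).

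COX4I1, the common isoform of the same subunit, gave no usable comparison. It had 7.55, 153.8 and 6.70 FPKM in the NC pigs and 168.5, 2.04 and 281 FPKM in the HFCF pigs, so that high and low values occurred in both groups, with a log2 fold change of 1.22 and an SE of 2.0. The table lists 4 transcripts for COX4I1. The median log2 fold change of the other 74 genes was 0.86. NDUFA4L2, a paralog of NDUFA4 known to be induced by low oxygen, was also scattered, with 80.0, 15.4 and 18.8 FPKM against 9.09, 34.1 and 52.5 FPKM (-0.17, adjusted p = 0.896). COX7A2L, a paralog that takes part in supercomplex assembly, was at 0.51 (adjusted p = 0.0669). COX6B2, a testis isoform, was listed at 0 in all NC pigs and at 0.143, 0.580 and 0.195 FPKM in the HFCF pigs. It passed the filter only through the HFCF pigs and was called in 7 of 16 alternatives, and without it 9 of 13 genes of complex IV rose.

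**Figure D3:**
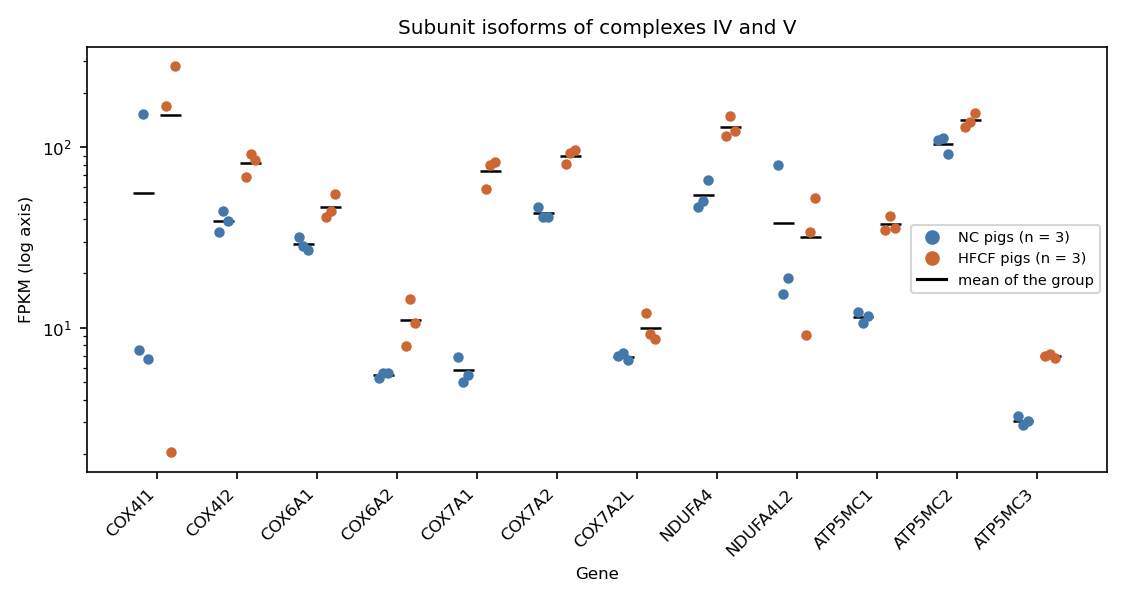
FPKM on a log axis of 12 isoform and paralog genes of complexes IV and V in each NC and HFCF pig (points) with the group means (bars). COX7A1 moved from 5.80 to 73.8 FPKM on average while COX7A2 moved from 43.1 to 90.0 FPKM, and COX4I1 spread from 2.04 to 281 FPKM across pigs of both groups.

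Complex V, the ATP synthase, had 7 of 14 genes higher (50%, against 22.8% of all tested genes) and 1 lower, with a median of 0.65. None of the 4 F1 genes with a symbol rose, and their median was 0.002. So few genes cannot be set apart from the 22.8% of all tested genes, and the difference from the other parts of the complex was not tested. ATP5F1A, the alpha subunit, had 20.0, 18.6 and 18.6 FPKM in the NC pigs and 14.3, 12.4 and 12.4 FPKM in the HFCF pigs and fell by 0.55 on the log2 scale (SE 0.14, adjusted p = 0.0241). It was called in 10 of 16 alternatives and lost the call when the first or second NC pig or the second or the third HFCF pig was left out (adjusted p = 0.0617 to 0.0787). ATP5F1B, the catalytic beta subunit, had 87.0, 80.5 and 92.8 FPKM against 106.1, 107.0 and 107.5 FPKM (0.30, adjusted p = 0.112). The values did not overlap, but under median-ratio scaling its log2 fold change was -0.05. ATP5F1C and ATP5F1D, of the central stalk joined to the head, had 0.15 and -0.14 (adjusted p = 0.445 and 0.458).

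The largest changes of the 14 genes were in the membrane part. ATP5ME, the small subunit e, had 3.82, 3.74 and 2.43 FPKM in the NC pigs and 24.5, 31.0 and 31.5 FPKM in the HFCF pigs (log2 fold change 3.10, SE 0.22, adjusted p = 0.000566). ATP5MD, another small membrane subunit, had 19.2, 22.3 and 23.7 FPKM against 90.7, 115.1 and 109.5 FPKM (2.27, SE 0.16, adjusted p = 0.000518). Both genes were several times higher in every HFCF pig. ATP5MG, subunit g, was not called (0.53, adjusted p = 0.0936). In the peripheral stalk ATP5PF rose 1.62 and ATP5PB 0.77 (adjusted p = 0.000976 and 0.00962), while ATP5PO, the most abundant of the 14 genes, had 135.0, 138.8 and 125.7 FPKM against 133.9, 154.5 and 183.8 FPKM (0.23, adjusted p = 0.311, and below 0 after median-ratio scaling and rescaling to TPM).

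The c ring, which turns as protons pass, is encoded by 3 genes whose mature proteins are the same. ATP5MC1 rose from 12.2, 10.6 and 11.6 FPKM to 34.97, 41.4 and 35.7 FPKM (1.69, SE 0.14, adjusted p = 0.000857), and ATP5MC3 from 3.22, 2.90 and 3.05 FPKM to 6.99, 7.15 and 6.83 FPKM (1.17, adjusted p = 0.0033). ATP5MC2, the most abundant, had 110.3, 111.9 and 91.4 FPKM against 129.8, 138.8 and 154.6 FPKM and was not called (0.43, adjusted p = 0.0661). The share of ATP5MC1 in the FPKM of the 3 genes was 9.70% ± 1.27 in NC pigs and 20.2% ± 2.01 in HFCF pigs, and that of ATP5MC2 was 87.7% ± 1.55 and 76.0% ± 2.22. ATP5IF1, the inhibitor that blocks ATP hydrolysis by the head, rose from 68.5, 69.7 and 63.4 FPKM to 137.1, 121.2 and 118.8 FPKM (0.90, SE 0.13, adjusted p = 0.00426).

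A further 13 nuclear subunits had no symbol in the table and lay outside the rule, and they were found by the description of the gene or by its identifier after the values had been seen. COX8C was at 0 in all 6 pigs. Of the 12 that were tested 9 rose (75%, against 22.8% of all tested genes) and none fell, with a median of 1.34. NDUFA3 (ENSSSCG00000003261), an accessory subunit of complex I, had 2.35, 1.98 and 1.53 FPKM in the NC pigs and 49.2, 54.3 and 65.2 FPKM in the HFCF pigs (log2 fold change 4.79, SE 0.20, adjusted p = 0.000158). UQCRH, the hinge protein of complex III, had 27.1, 25.6 and 21.4 FPKM against 151.8, 152.4 and 170.1 FPKM (2.68, adjusted p = 0.000255). The other small subunits ATP5MF, COX7B and UQCR11 rose 1.95, 1.85 and 1.68, and NDUFB1, NDUFA12, ATP5F1E and ATP5PD rose 1.36, 1.33, 1.07 and 0.65. ATP5F1E, the epsilon subunit, belongs to the F1 part, so that 1 of 5 F1 genes rose when it is counted. NDUFB1 lost its call without the first or the second NC pig or the second HFCF pig (adjusted p = 0.0529 to 0.0699). The genes not called were SDHA, the flavoprotein of complex II, at -0.46 (adjusted p = 0.0672), the complex I core gene NDUFS7 at 0.02 and NDUFV3 at -0.26. SDHA was called lower in 4 of 16 alternatives, and NDUFS7 and NDUFV3 in none.

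How many transcripts the table lists for a gene went along with its call. Of the 29 nuclear genes with 1 transcript, 23 rose and none fell, with a median of 1.06. Of the 46 with several transcripts, 19 rose and 2 fell, with a median of 0.52. Among all tested genes the shares that rose were 20.4% with 1 transcript and 24.2% with several. Across the 75 genes the log2 fold change had a Spearman correlation of -0.29 with the NC mean FPKM, and across all 15384 tested genes it was -0.33. These figures are descriptions over genes of the same 6 libraries. The NC values enter both the fold change and the NC mean, which by itself favours a negative correlation. No transcript lengths were used here, so the relation of the change to transcript length was not tested, also for the contrasts between roles.

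Of the 13 mitochondrially encoded genes 11 rose (84.6%, against 22.8% of all tested genes) and none fell. Their median log2 fold change was 1.41, against 0.90 for the nuclear genes. They took 4.55%, 6.78% and 4.57% of all FPKM in NC pigs, against 13.2%, 13.04% and 8.79% in HFCF pigs. The third HFCF pig had the lowest mitochondrial and the highest nuclear share of its group, and the second NC pig had the highest mitochondrial share of the NC group. The number called depended on single pigs: it was 5 without the first NC pig, 6 without the third NC pig and 7 without the second HFCF pig. It was also 2 when the filter on low values was dropped and 7 after quantile normalization. Of all tested genes 12.7%, 18.2% and 14.9% rose without these pigs, in that order. The share was 6.34% without the filter and 11.4% after quantile normalization. The median log2 fold change of the 13 genes was 1.41 without the filter and 1.15 after quantile normalization.

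The changes were uneven along the mitochondrial genome. ND3, a membrane subunit of complex I, had 110.2, 108.4 and 85.8 FPKM in the NC pigs and 1973, 2331 and 1510 FPKM in the HFCF pigs (log2 fold change 4.24, SE 0.21, adjusted p = 0.000232). ND6, the only one encoded on the opposite strand, had 145.5, 289 and 166 FPKM against 1316, 2417 and 1535 FPKM (3.15, SE 0.33, adjusted p = 0.0017). ATP6, the proton channel subunit of complex V, had 297, 657 and 301.1 FPKM against 3487, 3097 and 2197 FPKM (2.89, SE 0.36, adjusted p = 0.00259), while ATP8, whose reading frame overlaps that of ATP6, rose 1.29 (adjusted p = 0.0125). The other 7 called genes lay closer together: COX2 rose 1.70, ND2 1.66, ND1 1.47, COX3 1.41, ND4 1.37, ND5 1.33 and CYTB 1.23. COX1, the catalytic subunit of complex IV, had 4535, 7038 and 4364 FPKM against 11159, 9733 and 6602 FPKM, with overlap, and was not called (0.79, SE 0.33, adjusted p = 0.113). ND4L, whose frame overlaps that of ND4, was not called either (0.96, adjusted p = 0.0654).

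The ribosomal RNAs of the mitochondrion are transcribed from the same genome, and their rows differed from each other. The rRNA ENSSSCG00000018061 had 0.686, 0.378 and 0.295 FPKM in the NC pigs and 206, 190.2 and 140.7 FPKM in the HFCF pigs (log2 fold change 8.38, SE 0.29, adjusted p = 5.94e-05). The rRNA ENSSSCG00000018063 had 372, 185 and 112.8 FPKM against 130.5, 101.0 and 110.1 FPKM and was not called (-0.81, adjusted p = 0.172). Of 22 mitochondrial tRNA genes, 19 were tested, of which 6 rose (31.6%) and 4 fell. Among all tested genes 22.8% rose and 6.16% fell. The labels name an mRNA library kit, and the part of RNA selection in these values was not tested.

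**Figure D4:**
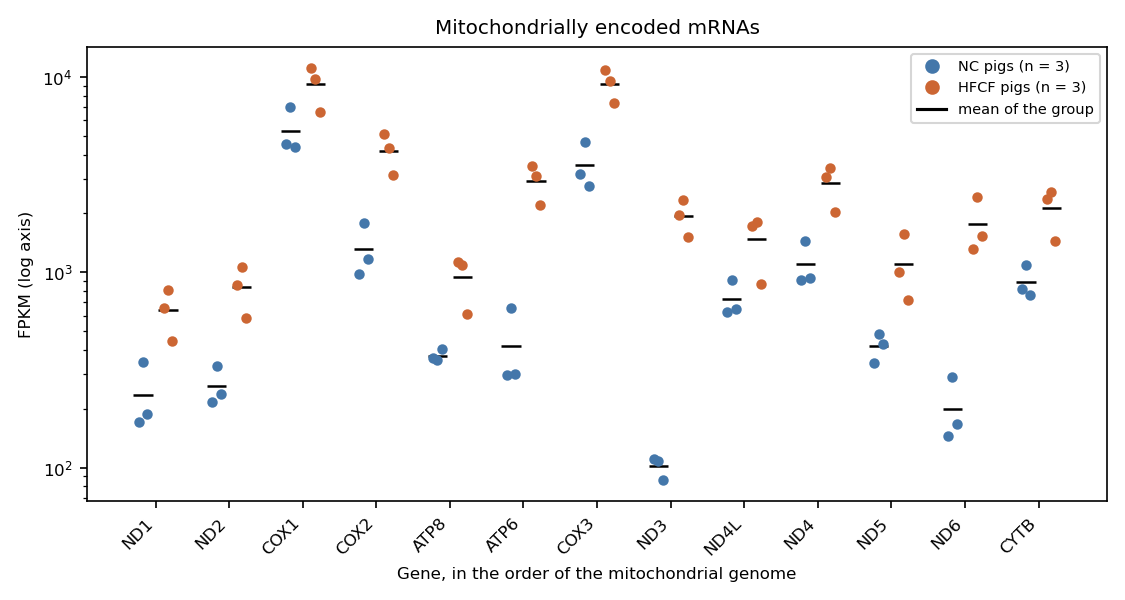
FPKM on a log axis of the 13 mitochondrially encoded mRNAs, in the order of the mitochondrial genome, in each NC and HFCF pig (points) with group means (bars). ND3, ND6 and ATP6 show the widest gaps between the groups, and COX1 and ND4L overlap.

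By complex, the mitochondrial genes can be set beside the nuclear genes with a symbol. The 7 mitochondrially encoded genes of complex I had a median of 1.47 on the log2 scale, against 0.95 for the 38 nuclear genes of the complex. CYTB of complex III had 1.23, against 0.25 for the 6 nuclear genes, and the 3 mitochondrially encoded genes of complex IV had 1.41, against 1.06 for the 14 nuclear genes. ATP6 and ATP8 of complex V had a median of 2.09, against 0.65 for 14 nuclear genes. Complex II, which has no mitochondrially encoded subunit, had the lowest median, 0.16. In every complex with both kinds, the mitochondrial median was the higher, and these differences were not tested.

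**Figure D5:**
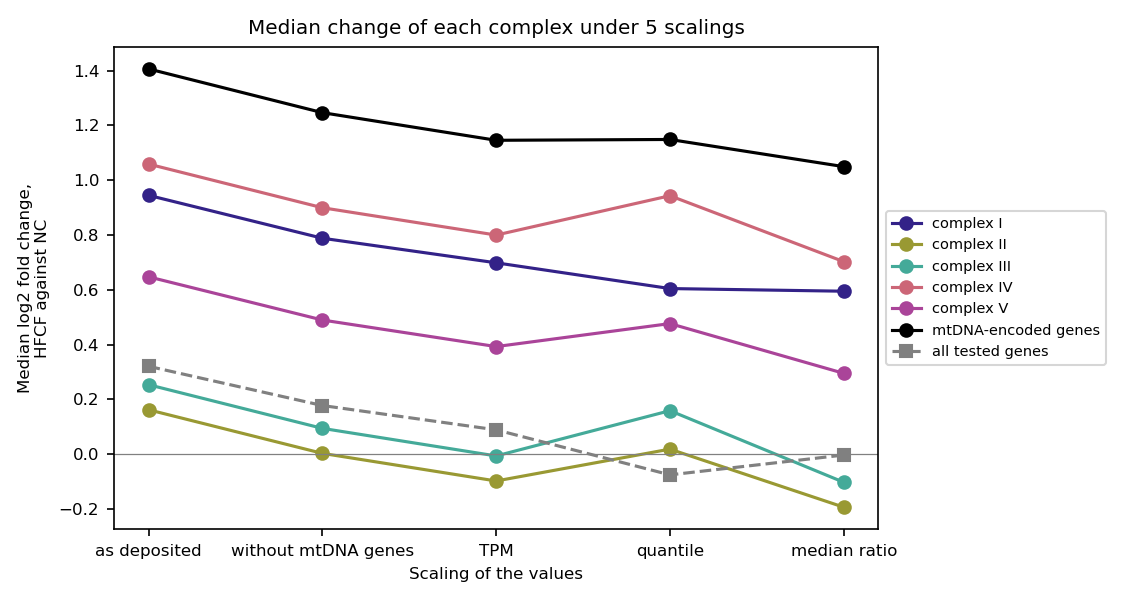
Median log2 fold change, HFCF against NC, of the nuclear genes of each complex, of the 13 mitochondrially encoded genes and of all tested genes (lines) with the values as deposited and under 4 other scalings (horizontal axis). Complexes I, IV and V stay above all tested genes, while complexes II and III fall below 0 after median-ratio scaling and rescaling to TPM. Nuclear genes without a symbol, such as UQCRH and UQCR11 of complex III, are not counted.

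Of 32 assembly factors outside the rule, 14 rose (43.8%, against 22.8% of all tested genes) and 1 fell, with a median of 0.68. COX17, the copper chaperone of complex IV, had 8.60, 8.05 and 8.57 FPKM in the NC pigs and 61.7, 66.9 and 58.1 FPKM in the HFCF pigs (log2 fold change 2.87, SE 0.13, adjusted p = 0.000196). PET100, another complex IV assembly factor, rose 1.92, and COX19, also linked to copper delivery, fell by 1.03 (adjusted p = 0.0456), a call made in 8 of 16 alternatives. Shares in the lists that follow lay nearer to that of all tested genes. Of 13 genes for mitochondrial DNA upkeep and transcription 4 rose (30.8%, median 0.54), led by MTERF3 (1.88) and MTERF2 (1.53). Of 14 genes for mitochondrial RNA processing 4 rose (28.6%, median 0.45), led by SLIRP (2.496), which stabilises mitochondrial mRNAs, and FASTKD1 (1.56).

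Of 11 tested regulators of mitochondrial biogenesis 2 rose (18.2%, near the share of all tested genes), PRKAA1 (1.13, adjusted p = 0.0153) and GABPB1 (0.85, adjusted p = 0.0369, lost without any 1 pig), and the median of the 11 was 0.05. The transcription factors NRF1, GABPA and ESRRA had log2 fold changes of 0.05, 0.28 and -0.005 (adjusted p = 0.873, 0.475 and 0.988). PPARGC1A, the coactivator PGC-1α, was at or under 0.0772 FPKM in every pig and was below the filter. TFAM, which packages mitochondrial DNA and starts its transcription, had 3.03, 3.86 and 3.17 FPKM in the NC pigs and 5.91, 0.705 and 6.55 FPKM in the HFCF pigs (-0.11, adjusted p = 0.926). The second HFCF pig set that value: without it the log2 fold change of TFAM was 0.88 and its adjusted p 0.0430.

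Of 18 genes of the TCA cycle and pyruvate dehydrogenase, 2 rose (11.1%) and 1 fell, with a median of -0.03. Among all tested genes 22.8% rose and 6.16% fell, with a median of 0.32. In 6 of the 18 every HFCF pig was below every NC pig, against 12.1% of all tested genes. In 4 every HFCF pig was above every NC pig, against 36.1%. DLAT and PDHB, subunits of pyruvate dehydrogenase, rose 0.70 and 0.55 (adjusted p = 0.0387 and 0.0441), and OGDH, which oxidises 2-oxoglutarate, fell by 0.52 (adjusted p = 0.0243). DLAT and PDHB were each called in 4 and OGDH in 10 of 16 alternatives. Of 25 genes for electron carriers and inner membrane transport, 4 rose (16%) and 3 fell (median 0.29). VDAC2, an outer membrane channel on that list, had 59.4, 60.0 and 58.6 FPKM against 33.1, 31.4 and 33.5 FPKM and fell by 0.86 (SE 0.12, adjusted p = 0.00352). UCP2, an uncoupling protein family member abundant in macrophages, rose 2.26 (adjusted p = 0.0427) and was at 37.5 FPKM in the first HFCF pig but at 6.05 and 6.09 FPKM in the others. Without that pig UCP2 rose 1.39 (adjusted p = 0.0075). GPD2, of the glycerophosphate shuttle, rose 1.87 (adjusted p = 0.0387) and COQ8A, of ubiquinone synthesis, fell by 0.55 (adjusted p = 0.0234). UCP2 was called in 6, GPD2 in 4 and COQ8A in 10 of 16 alternatives. CYCS, cytochrome c itself, had -0.26 (adjusted p = 0.344).

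Genes for ribosomal proteins, chosen for comparison after the values had been seen, gave like figures. Of 50 cytosolic ribosomal protein genes 35 rose (70%), with a median log2 fold change of 0.98. Of 65 mitochondrial ribosomal protein genes 29 rose (44.6%), with a median of 0.57. Both shares were above the 22.8% of all tested genes, whose median was 0.32. The nuclear respiratory chain genes, with 42 of 75 higher and a median of 0.90, lay between these lists, and none of the differences between the lists was tested.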

How the data were processed

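Total RNA of abdominal aorta from 3 NC and 3 HFCF pigs was sequenced as paired-end reads. The authors trimmed reads with cutadapt 1.9 and aligned them with HISAT2 (submitters' processing notes), quantified genes with StringTie (methods) and deposited FPKM values. The methods name Sscrofa 10.2, no genome of that build was used here, and neither coordinates nor sequences are given. How reads shared by near-identical copies were assigned is not given in the sources used here, so values of genes with pseudogene copies are uncertain.

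A value of 0.0001 FPKM was read as 0. Values were analysed as log2(FPKM + 0.1) with limma 3.58.1 in R 4.3.3 (a linear model on diet alone, with a variance trend in eBayes) for the 15384 genes that averaged 0.1 FPKM or more, and Benjamini-Hochberg adjustment over all of them. The precision of a value was taken from the spread among 3 pigs. On simulated data of 15384 genes with 200 changed 2 log2 units, 120 were recovered with 4 other calls. In the pigs a far larger share of genes was called (22.8% higher and 6.16% lower), so this recovery does not describe the fit to the pigs. As 16 alternatives, the fit was repeated with pseudocounts of 1 and 0.01, without a filter, with a mean FPKM of at least 1, 4 scalings, eBayes without a trend, a replicate block and each pig left out. Counts were also taken by the study's rule (ratio of means above 2 or below 0.5 and unadjusted p under 0.05), with the p of limma.

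Members, lists and tests were chosen with earlier results of these data known. Genes were named by rule: in each complex the 3 highest and 3 lowest called and the most abundant, isoforms and subunits named beforehand, the 13 mitochondrially encoded genes, and in each other list the 2 highest and 2 lowest called with 6 regulators and carriers. Other genes were named after their values were seen. The values of 1 gene are not reported here on their own.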

Additional observations from a re-analysis of the deposited data

How the results depend on the processing

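The count of nuclear genes that rose held better than the count of those that fell. Between 33 and 42 were higher in the alternatives that kept all pigs, and 35 to 43 with each pig left out in turn. All 75 were tested, except that 72 were with a mean FPKM of at least 1. Of all tested genes 6.34% to 26.9% were higher in the alternatives that kept all pigs. The number lower was unstable, with 9 after median-ratio scaling, 5 after quantile normalization, 5 after rescaling to TPM, 4 after rescaling without the mitochondrial genes, 0 with eBayes without a trend, 1 by the study's rule and 0 to 5 with each pig left out. Of all tested genes 12.8%, 11.6%, 9.93% and 8.35% were lower under the 4 scalings in that order. With each pig left out, the share of all tested genes that was lower lay between 2.85% and 5.10%. The mitochondrially encoded genes called were 2 with no filter, 7 after quantile normalization and 5 to 12 with each pig left out. Of all tested genes 6.34%, 11.4% and 12.7% to 18.2% rose in these settings, in that order. Depth is not known, so counting error cannot be set beside the spread between pigs, and with 3 pigs a group calls near the threshold change readily. The causes of these differences were not tested.

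Same-numbered pigs of the groups did not deviate together (correlations of 0.02, -0.08 and -0.07), and pigs of different numbers had correlations between -0.07 and 0.13. The values thus showed no pairing by number, but with 3 pigs a group they cannot exclude one. With the replicate number as a block, 37 genes were higher and 0 lower.

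The counts that follow take both directions together. In complex II 0, 2 and 0 genes were called after median-ratio scaling, quantile normalization and rescaling to TPM, and 1 to 2 with each pig left out. SDHC was among them as lower after quantile normalization and without the second NC pig. In complex III 4 were called after median-ratio scaling, with UQCRC2 and UQCRFS1 as lower, and 2 to 3 with each pig left out. Without the first HFCF pig UQCRC2 was called lower. Of all tested genes 13.2% were higher and 12.8% lower after median-ratio scaling, and 11.4% and 11.6% after quantile normalization. In complex V 5 were called by the study's rule. In complexes I, IV and V, 19 to 26, 6 to 10 (6 without the second NC pig) and 7 to 8 were called with each pig left out.

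The median log2 fold change of the 75 genes was 0.71 with a pseudocount of 1, 0.80 with a mean FPKM of at least 1, 0.54 after median-ratio scaling, 0.59 after quantile normalization, 0.64 after rescaling to TPM, 0.74 after rescaling without the mitochondrial genes, and 0.80 to 0.86 with each pig left out. That of complex I was 0.74 with a pseudocount of 1 and 0.60, 0.60, 0.70 and 0.79 under the 4 scalings in the same order. Complex II had -0.19, 0.019, -0.10 and 0.0034, complex III -0.10, 0.16, -0.0060 and 0.095, and complex V 0.30, 0.48, 0.39 and 0.49. Complex IV had 0.70 after median-ratio scaling, 0.80 after rescaling to TPM and 0.90 after rescaling without the mitochondrial genes. With each pig left out the medians were 0.91 to 0.98 (I), 0.11 to 0.21 (II), 0.21 to 0.30 (III), 0.94 to 1.15 (IV), 0.55 to 0.74 (V) and 1.27 to 1.62 (mitochondrially encoded).

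All changes of sign were in genes that were not called with the values as deposited. After median-ratio scaling the log2 fold change was -0.17 for NDUFB2, -0.042 for NDUFAF3, -0.10 for NDUFS1, -0.19 for SDHB, -0.19 for CYC1, -0.012 for UQCRC1, -0.14 for COX8A, -0.21 for ATP5F1C, -0.054 for ATP5F1B, -0.13 for ATP5PO, -0.33 for NDUFS7, -0.28 for NRF1 and -0.052 for GABPA. After rescaling to TPM it was -0.083 for NDUFB2, -0.0062 for NDUFS1, -0.10 for SDHB, -0.10 for CYC1, -0.039 for COX8A, -0.11 for ATP5F1C, -0.030 for ATP5PO, -0.24 for NDUFS7 and -0.20 for NRF1. After quantile normalization it was -0.47 for NDUFB2, -0.077 for NDUFS1, -0.23 for NDUFS7, -0.60 for NRF1 and -0.37 for GABPA. After rescaling without the mitochondrial genes it was -0.013 for ATP5F1C, -0.14 for NDUFS7 and -0.094 for NRF1, and with a pseudocount of 1 it was 0.041 for TFAM.

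With each pig left out in turn, the log2 fold change of NDUFAF6 lay between -0.29 and 0.13, that of NDUFA10 between -0.17 and 0.030, that of NDUFA4L2 between -0.69 and 0.58, that of COX4I1 between -0.074 and 3.44, that of NDUFB2 between -0.051 and 0.31, that of NDUFS7 between -0.038 and 0.14, that of ESRRA between -0.12 and 0.12 and that of TFAM between -0.64 and 0.88. Over the genes listed in all alternatives, 1654 gene and setting pairs kept direction and side of the threshold, 200 lost the call, 31 gained it and 47 changed sign.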
